A study of Mus musculus with 17 samples.

Results

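Hepcidin, the liver hormone that restrains iron export, and the core genes of iron handling around it were described in livers of mice on a high-fat diet (HFD) or a control diet (CD). The 9 genes were Hamp, Hamp2, Slc40a1, Hfe, Tfr2, Trf, Tfrc, Fth1 and Ftl1. They were matched by symbol, and all 9 were among the 12334 genes of the RNA table. They were also the nearest gene start of 36 of the 57499 regions of acetylated histone H3 lysine 9 (H3K9ac), a chromatin mark of active gene starts. Hamp and Hamp2 are near-identical neighbours, so reads of one may have been assigned to the other. How such reads were assigned, and whether strand was used, is not given in the sources used here.

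HFD livers came from C57BL/6 mice, a common inbred laboratory strain, fed a diet with 60% of calories from fat for 10 weeks. CD livers came from C57BL/6 mice on a diet with 18% of calories from fat for the same 10 weeks. RNA was sequenced from 4 HFD and 4 CD livers (libraries A to D of each diet), and H3K9ac was immunoprecipitated from 3 HFD livers (A, B and D) and 3 CD livers (A, C and D). The mice carried no labelled allele or agent, and their age is not in the labels. The labels do not say that each library came from a separate mouse, so the p-values measure the spread between these libraries.

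Hepatocytes secrete hepcidin, which binds the iron exporter ferroportin (Slc40a1) on other cells and sends it for degradation, so that less iron enters the blood. Its gene Hamp responds to iron through BMP ligands and SMAD proteins, with Hfe and transferrin receptor 2 (Tfr2) as sensors, and to inflammation through interleukin 6 and STAT3. Mice carry a second copy, Hamp2, whose peptide is not known to act on iron. Transferrin (Trf) carries iron in blood, transferrin receptor 1 (Tfrc) takes it up, and ferritin, built from a heavy (Fth1) and a light chain (Ftl1), stores it.

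The sequences before the starts of the hepcidin genes show how alike the copies are. RefSeq promoters (build GRCm38.p6, the assembly that mm10 names) were matched for 7 of the 9 genes. Printed are the 250 bases upstream of the RefSeq start, at chr7:30944030-30944279 for Hamp and chr7:30924182-30924431 for Hamp2, both on the minus strand, 5′ to 3′. Capitals mark, in order, a core BMP response element, GGCGCC in Hamp with its aligned bases in Hamp2, and a STAT-type match, TTCNNNGAA.
Hamp: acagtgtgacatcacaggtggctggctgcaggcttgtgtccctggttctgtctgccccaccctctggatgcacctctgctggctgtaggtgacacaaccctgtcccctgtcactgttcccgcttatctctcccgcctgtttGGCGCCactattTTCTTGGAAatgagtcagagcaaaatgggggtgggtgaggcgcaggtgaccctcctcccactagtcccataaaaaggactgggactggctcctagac
Hamp2: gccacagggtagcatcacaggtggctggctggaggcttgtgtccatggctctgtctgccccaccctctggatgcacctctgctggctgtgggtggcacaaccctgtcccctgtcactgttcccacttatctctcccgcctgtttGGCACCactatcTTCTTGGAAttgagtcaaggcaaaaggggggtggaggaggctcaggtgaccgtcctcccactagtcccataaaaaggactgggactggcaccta
Of 247 aligned positions, 227 were identical (91.9%), 20 were substituted, and 6 further positions were gaps. Counted from 1 at the 5′ end of the Hamp stretch, one substitution lay in the BMP core, G145A, where the first base is that of Hamp. On either strand, GGCGCC occurred in 9.59% of 32817 RefSeq stretches of this length, and among the genes described here in Hamp and Tfrc. TTCNNNGAA occurred in 7.01% of them, and here in Hamp and Hamp2. These are matches of letters and show no binding.

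In HFD livers the RNA of Hamp was lower and that of Hamp2 higher than in CD livers. These were 2 of the 9 genes past an adjusted p of 0.05, 1 higher and 1 lower, against 7.27% of all 12334 genes (3.63% higher and 3.64% lower). The values are CPM, read counts scaled to a common library size with TMM factors, tested in edgeR by quasi-likelihood, and p-values were adjusted over all genes (Benjamini-Hochberg). The RNA libraries held 31802893 to 37596560 counts, and a count of 0 would have allowed up to 0.0798 to 0.0943 CPM. Since the livers were measured in bulk, fewer cells of a type and less RNA per cell cannot be told apart.

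**Figure D1:**
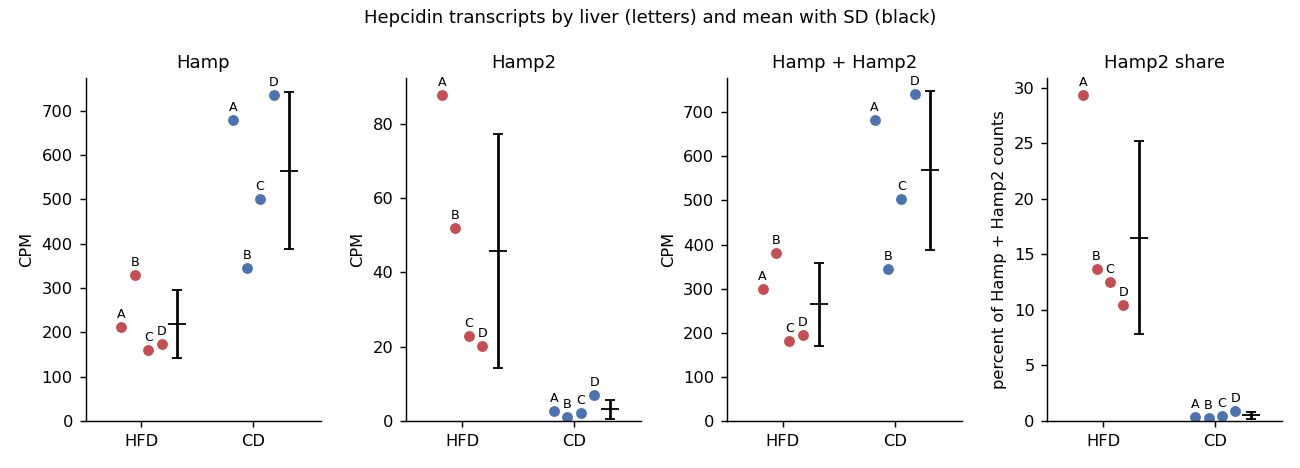
CPM of Hamp, of Hamp2 and of both genes summed, and the share of Hamp2 in the counts of both (percent), for each HFD and CD liver (points, letters name the library); black marks show the mean and SD of 4 livers. All 4 HFD livers lay below all CD livers for Hamp and above them for Hamp2, while for the sum HFD library B lay above CD library B.

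Hamp (chr7:30942369-30944017, minus strand) had 212, 329, 159 and 174 CPM in HFD livers A to D, against 680, 344, 501 and 735 CPM in CD livers A to D. Every HFD value lay under every CD value, although the highest HFD liver, B, came close to the lowest CD liver, also B. Hamp averaged 219 ± 77.2 CPM in HFD livers and 565 ± 178 CPM in CD livers (SD, n = 4 each). This was a log2 change of -1.37 (SE 0.27, edgeR adjusted p = 0.0128), or 0.387-fold. Without any 1 library the adjusted p stayed between 0.00626 and 0.0413.

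Hamp2 (chr7:30922372-30924181, minus strand) had 87.9, 52.1, 22.8 and 20.3 CPM in HFD livers A to D, against 2.55, 0.986, 2.14 and 6.92 CPM in CD livers A to D. The groups did not overlap, and within HFD the libraries A and B stood well above C and D. Hamp2 averaged 45.8 ± 31.6 CPM in HFD livers and 3.15 ± 2.60 CPM in CD livers (SD, n = 4 each). The log2 change was 3.87 (SE 0.63, edgeR adjusted p = 0.00441), or 14.6-fold. Without CD library D the log2 change was 4.61, and without any other 1 library it was 3.33 to 4.12, with adjusted p of 0.00288 to 0.0201 over all these. The raw counts behind it were 3061, 1729, 747 and 667 in HFD livers and 82, 37, 72 and 228 in CD livers.

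Because the copies can exchange reads, their counts were also summed. The sum was 299, 382, 182 and 194 CPM in HFD livers A to D, against 682, 345, 503 and 742 CPM in CD livers A to D. The ranges overlapped, since HFD library B lay above CD library B, and the other HFD libraries lay below all CD libraries. The summed level was lower in HFD livers, with a log2 change of -1.10 (SE 0.28, edgeR adjusted p = 0.0404). Hamp thus kept most of the hepcidin counts in both diets.

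The share of Hamp2 in the counts of both genes was 29.4%, 13.7%, 12.5% and 10.4% in HFD livers A to D, against 0.373%, 0.285%, 0.424% and 0.932% in CD livers A to D. The smallest HFD share, in library D, was far above the largest CD share, also in library D. The mean share was 16.5 ± 8.68% in HFD livers and 0.504 ± 0.291% in CD livers (SD, n = 4 each), a difference of 15.99 percentage points. An exact two-sided permutation test over the 70 regroupings gave p = 0.0286, the smallest it can give. That p was fixed in advance, since every HFD liver had less Hamp and more Hamp2 than every CD liver. It restates those values and is no further evidence. The 95% Wilson interval ran from 28.5 to 30.2% in HFD library A and from 0.819 to 1.06% in CD library D, and covers counting error only, because reads carry no molecular identifiers.

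HFD libraries A and B, which were highest in Hamp2, also differed from C and D in cell type markers. Relative to the CD mean, hepatocyte markers (13 of 13 measured) averaged 0.54, 0.40, 0.15 and 0.14 on the log2 scale in HFD livers A to D. Among these 13, single-gene log2 changes ran from -0.08 to 1.04, with a median of 0.19. The highest, Pck1, was itself called higher in HFD livers (edgeR adjusted p = 0.047). It had 3592, 3659, 1771 and 1795 CPM in HFD livers A to D, against 994 to 1734 CPM in CD livers. The average thus need not measure hepatocyte content alone. The summed level of the hepatocyte markers ran from 120559 to 145808 CPM in HFD livers and from 107543 to 121943 CPM in CD livers. Markers of sinusoidal endothelium (12 of 12 measured) averaged -0.54, -0.27, 0.58 and 0.54, those of Kupffer cells and macrophages (13 of 14) -0.59, -0.02, 0.15 and 0.79, and those of stellate cells (12 of 12) -0.72, -0.60, 0.04 and 0.36. Their summed levels were 179 to 361, 179 to 474 and 330 to 578 CPM in HFD livers, against 218 to 303, 232 to 337 and 430 to 501 CPM in CD livers. With the Kupffer cell and macrophage markers as a term, the log2 change was -1.33 for Hamp (edgeR adjusted p = 0.00756) and 3.92 for Hamp2 (0.000129). With the sinusoidal endothelium markers as a term, which was not planned, it was -1.35 for Hamp (0.0043) and 3.77 for Hamp2 (0.000347). Beyond fits with these marker terms, the part of cell makeup in the results was not tested. Hepatocyte RNA was plentiful in every library. Listed genes had mean counts from 13.9 upwards, so no measured marker could be at 0 in all libraries. With HFD A and B only, Hamp had a log2 change of -1.06 (adjusted p = 0.0572) and Hamp2 of 4.48. With HFD C and D only, the changes were -1.77 for Hamp and 2.77 for Hamp2, with adjusted p = 0.0112 for Hamp2. The RNA column headings carried numbers of unstated meaning that did not overlap between HFD and CD, so what they mark and the diet cannot be told apart.

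At the chromatin level the hepcidin genes moved the same way as their RNA. Of the 36 H3K9ac regions of the 9 genes, 4 passed an adjusted p of 0.05 in edgeR's quasi-likelihood test over all 57499 regions, 1 higher and 3 lower in HFD livers, against 2.39% of all regions (0.835% higher and 1.55% lower). The H3K9ac libraries held 9255635 to 12149497 counts in regions, and a count of 0 would have allowed up to 0.247 to 0.324 CPM. The values of all HFD livers lay on one side of those of all CD livers in 9 of the 36 regions, against 15.4% of all regions. In the RNA this held for 2 of the 9 genes, against 14.3% of all genes.

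The Hamp start lies in a region at chr7:30942184-30945007 (mm10) that spans the whole gene and all 250 bases printed above, and whose centre is 421 bases inside the gene. It had 13.97, 15.5 and 6.92 CPM in HFD livers A, B and D, against 20.8, 22.4 and 20.6 CPM in CD livers A, C and D. All 3 HFD livers were below all 3 CD livers, D by most. The log2 change was -0.79 (SE 0.16, edgeR adjusted p = 0.000774). DESeq2 gave -0.80 with an adjusted p of 0.254, so the call depends on the tool.

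The other 3 Hamp regions, with centres 1884, 3639 and 5388 bases before the start, had log2 changes of -0.17, -0.29 and -0.72, and none passed (adjusted p 0.819, 0.648 and 0.131). These 3 regions lie within the neighbouring gene Usf2 (chr7:30945248-30956803, minus strand) and were assigned to Hamp only by nearest start. The farthest of them had 2.81, 2.17 and 1.87 CPM in HFD livers A, B and D, against 3.48, 3.75 and 4.26 CPM in CD livers A, C and D, without overlap. With the 4 Hamp regions summed per gene, those within Usf2 included, the log2 change was -0.55 (SE 0.13, edgeR adjusted p = 0.0481). In that fit 2.70% of 16383 genes were called.

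Hamp2 had a single region, at chr7:30923775-30924232 within its intron and start. It had 4.00, 2.52 and 2.31 CPM in HFD livers A, B and D, against 1.16, 0.917 and 0.396 CPM in CD livers A, C and D. The groups did not overlap, and these were small counts, 47, 29 and 21 in HFD livers and 13, 11 and 4 in CD livers. The log2 change was 1.81 (SE 0.35, edgeR adjusted p = 0.00041), and the adjusted p without any 1 library was at most 0.0405. The region covered 51 of the 250 bases printed for Hamp2. The printed bases aligned to the BMP element lay outside it.

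**Figure D2:**
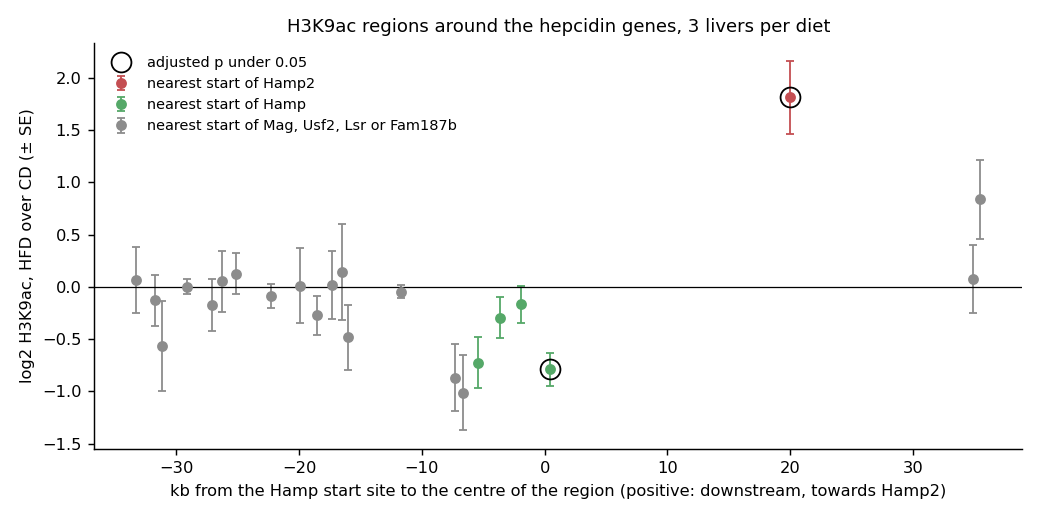
Log2 change of H3K9ac (HFD over CD, ± SE, 3 livers per diet) of the regions around the hepcidin genes, by distance in kb from the Hamp start to the centre of each region; circled regions passed an adjusted p of 0.05. The Hamp2 region was at 1.81 and the Hamp start region at -0.79, and none of the 18 regions of other genes passed.

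The change was compared with the surrounding chromatin. Within 40000 bases of the Hamp start there were 23 regions, of which 18 had another gene's start as their nearest. None of these 18 passed in edgeR's test (unadjusted p under 0.05 was reached, the lowest being 0.0064), with log2 changes of -1.01 to 0.84 and a lowest adjusted p of 0.154. The neighbouring genes had RNA changes of 0.02 for Usf2, which encodes an E-box-binding transcription factor (adjusted p = 0.963), and -0.22 for Lsr, a lipoprotein receptor gene (adjusted p = 0.398). No difference between the Hamp regions and their neighbours was tested.

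Ferroportin, the target of hepcidin, did not pass. Slc40a1 (chr1:45908070-45925594, minus strand) had 110, 175, 177 and 188 CPM in HFD livers A to D, against 127, 172, 105 and 114 CPM in CD livers A to D. The diets overlapped: HFD library A sat among the low CD livers, and CD library B sat with the high HFD livers. The mean was 163 ± 35.3 CPM in HFD livers and 130 ± 29.6 CPM in CD livers (SD, n = 4 each), a log2 change of 0.33 (SE 0.19, edgeR adjusted p = 0.391). Its only H3K9ac region had 84.3, 76.8 and 74.2 CPM in HFD livers A, B and D, against 74.3, 80.9 and 75.3 CPM in CD livers A, C and D, a log2 change of 0.03 (edgeR adjusted p = 0.947).

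Among the iron sensors, Hfe, an MHC class I-like protein that acts upstream of hepcidin, had lower H3K9ac without a called change in RNA. Hfe RNA (chr13:23703841-23710811, minus strand) was 43.7, 40.7, 40.8 and 33.3 CPM in HFD livers A to D, against 48.3, 43.2, 43.4 and 48.8 CPM in CD livers A to D. The ranges met at 43.7 CPM in HFD library A and 43.2 CPM in CD library B, and the log2 change was -0.21 (SE 0.11, edgeR adjusted p = 0.299). Its start region, chr13:23710009-23711093, had 46.1, 47.4 and 45.9 CPM in HFD livers A, B and D, against 57.8, 59.3 and 57.3 CPM in CD livers A, C and D. The groups were tight and apart, and the log2 change was -0.32 (SE 0.09, edgeR adjusted p = 0.034).

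A smaller Hfe region inside the gene, chr13:23709303-23709718, had 2.30, 1.998 and 2.64 CPM in HFD livers A, B and D, against 4.56, 5.25 and 4.36 CPM in CD livers A, C and D. The groups did not overlap, with a log2 change of -1.04 (SE 0.24, edgeR adjusted p = 0.00467). All 5 Hfe regions had log2 changes below 0. Summed per gene they changed by -0.37 (SE 0.07, edgeR adjusted p = 0.00806), and Hfe, Hamp and Hamp2 were the genes of the 9 called in that summed fit. The call of the start region was lost without HFD library A (adjusted p = 0.162) or B (0.144), without CD library A (0.0943), C (0.165) or D (0.0627), and with DESeq2 (0.0524). That of the smaller region was lost without HFD library B (0.103) or CD library C (0.0608).

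Tfr2, the transferrin receptor that senses loaded transferrin, had 415, 433, 335 and 363 CPM in HFD livers A to D, against 398, 363, 372 and 393 CPM in CD livers A to D. The HFD values spread on both sides of the CD values. The log2 change was 0.02 (SE 0.11, edgeR adjusted p = 0.96), and the strongest of its 6 H3K9ac regions changed by -0.07 (adjusted p = 0.859).

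Of the transport and uptake genes, Trf, the most abundant of the 9, had 21800, 21164, 17487 and 19420 CPM in HFD livers A to D, against 18262, 16200, 16688 and 18480 CPM in CD livers A to D. The HFD livers A, B and D lay above all CD livers and HFD library C lay among them. The log2 change was 0.20 (SE 0.13, edgeR adjusted p = 0.434). Tfrc had 29.99, 32.9, 41.0 and 22.3 CPM in HFD livers A to D, against 26.04, 32.9, 39.4 and 18.7 CPM in CD livers A to D. The ranges covered each other almost wholly, with a log2 change of 0.11 (SE 0.23, edgeR adjusted p = 0.866). The strongest H3K9ac region changed by 0.07 at Trf (adjusted p = 0.839) and by 0.01 at Tfrc (adjusted p = 0.989).

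The 2 ferritin chains did not pass on their own, while the share of Ftl1 in their counts did not overlap between the diets. Fth1 had 1840, 1361, 1198 and 1102 CPM in HFD livers A to D, against 1362, 1219, 1092 and 1384 CPM in CD livers A to D. Ftl1 had 2513, 1877, 1723 and 1452 CPM in HFD livers A to D, against 2304, 1937, 1799 and 2583 CPM in CD livers A to D. Both ranges overlapped, with HFD library A high and D low for both chains. The log2 change was 0.12 for Fth1 (SE 0.16, edgeR adjusted p = 0.762) and -0.19 for Ftl1 (SE 0.18, edgeR adjusted p = 0.643).

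The share of Ftl1 in the counts of both ferritin genes was 57.7%, 58.0%, 59.0% and 56.8% in HFD livers A to D, against 62.9%, 61.4%, 62.2% and 65.1% in CD livers A to D. Every HFD share lay under every CD share. The mean was 57.9 ± 0.883% in HFD livers and 62.9 ± 1.599% in CD livers (SD, n = 4 each), a difference of -5.02 percentage points. The exact two-sided permutation test gave p = 0.0286, the smallest possible with 70 regroupings. How often the shares of other gene pairs part the diets was not examined. The strongest H3K9ac region changed by 0.04 at Fth1 (adjusted p = 0.91) and by -0.05 at Ftl1 (adjusted p = 0.897). The ferritin genes have many processed copies in the genome, so their counts may include or lose shared reads.

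The remaining 23 H3K9ac regions of the 9 genes had log2 changes of -0.39 to 1.11. None passed in edgeR's test, with a lowest adjusted p of 0.357, and 2 had an unadjusted p under 0.05. None of the 23 passed with library totals, with any 1 library left out or with the letters as a block. DESeq2 gave an adjusted p to 12 of them and 11 were at or above the median level, and none of those passed.

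**Figure D3:**
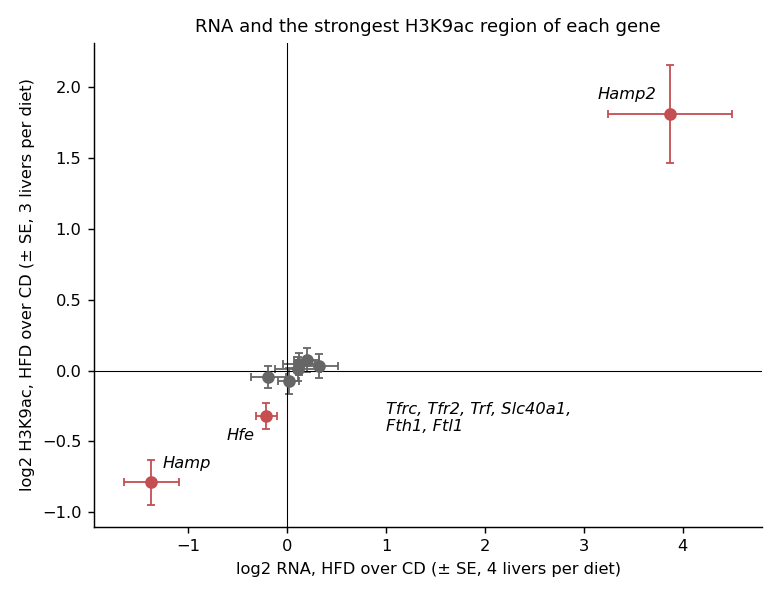
Log2 change of RNA (HFD over CD, horizontal axis, 4 livers per diet) and of the H3K9ac region with the highest mean CPM (vertical axis, 3 livers per diet) for each of the 9 genes, with SE bars; genes in red passed an adjusted p of 0.05 in at least one assay. Hamp2 lay at 3.87 and 1.81, Hamp at -1.37 and -0.79, Hfe at -0.21 and -0.32, and none of the other 6 genes passed in either assay.

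Levels per length, from the authors' FPKM values (fragments scaled to transcript length and library total), placed the genes in an order that differed between the diets in the hepcidins. In HFD livers the order was Trf (8562 FPKM), Ftl1 (1950), Fth1 (910), Hamp (555), Hamp2 (105), Tfr2 (101), Slc40a1 (48.1), Hfe (23.05) and Tfrc (6.43). The ranges of Fth1 and Hamp overlapped, as did those of Hamp2 and Tfr2. In CD livers it was Trf (7465 FPKM), Ftl1 (2222), Hamp (1434), Fth1 (837), Tfr2 (99.4), Slc40a1 (38.4), Hfe (26.7), Hamp2 (7.33) and Tfrc (5.96). There the ranges of Ftl1 and Hamp, of Hamp and Fth1, and of Hamp2 and Tfrc overlapped. Among all 12334 genes, Hamp held rank 111 by mean FPKM in HFD livers and 47 in CD livers, and Hamp2 held rank 647 in HFD livers and 5202 in CD livers.

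**Figure D4:**
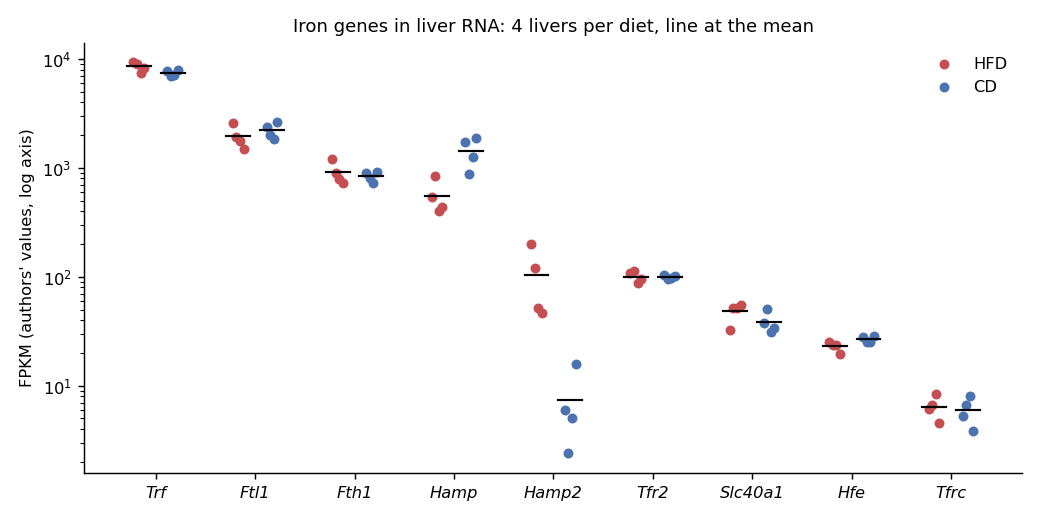
FPKM of the 9 genes on a log axis, 4 HFD livers (red) and 4 CD livers (blue) per gene, with a line at the mean. Hamp2 and Hamp are the only genes here whose diets do not overlap, with means of 105 (HFD) and 7.33 (CD) FPKM for Hamp2 and 555 (HFD) and 1434 (CD) FPKM for Hamp.

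The wider iron pathway was examined through 7 gene lists with 99 genes measured. Of these, 1 was higher and 1 lower in HFD livers, against 7.27% of all genes, and the median log2 change was 0.06, beside 0.01 over all genes. Both lay in the list of cellular iron uptake, reduction and export (14 measured, median 0.09). Slc39a14, a transporter of iron not bound to transferrin, had 180, 252, 229 and 237 CPM in HFD livers A to D, against 144, 144, 158 and 120 CPM in CD livers A to D. The groups did not overlap, and the log2 change was 0.67 (SE 0.13, edgeR adjusted p = 0.0102), past the threshold in all 16 other settings.

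Slc11a2, the divalent metal transporter DMT1, had 29.0, 30.1, 35.2 and 28.6 CPM in HFD livers A to D, against 37.2, 45.6, 51.1 and 38.9 CPM in CD livers A to D. The groups did not overlap, and the log2 change was -0.49 (SE 0.12, edgeR adjusted p = 0.0383). The call was lost without HFD library A (adjusted p = 0.0513), B (0.119) or D (0.088), and without CD library B (0.108) or C (0.115). It was also lost with library totals (0.0522), with HFD A and B only (0.053) and with HFD C and D only (0.119). An intronic Slc11a2 region, chr15:100400784-100404008, had H3K9ac of 36.1, 34.2 and 24.8 CPM in HFD livers A, B and D, against 49.7, 54.6 and 39.8 CPM in CD livers A, C and D. It was lower in all HFD livers, with a log2 change of -0.59 (SE 0.11, edgeR adjusted p = 0.000355).

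**Figure D5:**
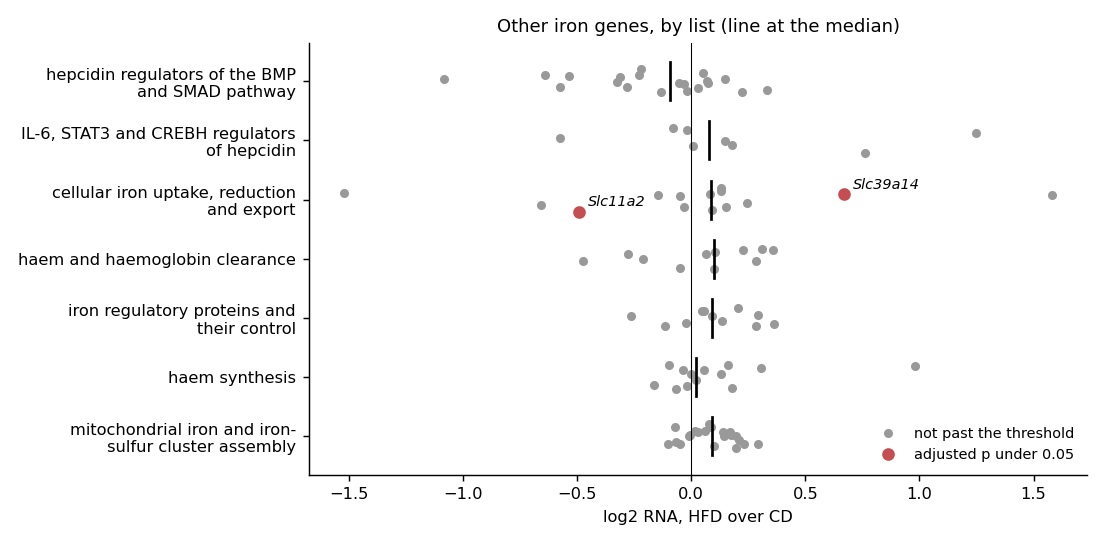
Log2 RNA change (HFD over CD) of each measured gene of the 7 iron lists (points, 4 livers per diet), with a line at each list's median; red marks an adjusted p under 0.05. Only Slc39a14 (0.67) and Slc11a2 (-0.49) passed, and the list medians lay between -0.09 and 0.10.

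Of the BMP and SMAD regulators of hepcidin, 0 of 20 measured genes passed in edgeR's test (median -0.09), against 7.27% of all genes. Fkbp1a, which encodes a binding partner of BMP type I receptors, had the smallest p, with a log2 change of -0.31 and an adjusted p of 0.0799. The targets Id1 and Atoh8, which serve as readouts of BMP signalling, had 2.90, 2.26, 1.71 and 3.71 CPM (Id1) and 17.6, 15.9, 10.5 and 14.2 CPM (Atoh8) in HFD livers A to D. In CD livers A to D they had 5.80, 3.20, 2.70 and 10.7 CPM (Id1) and 16.9, 15.7, 19.96 and 34.1 CPM (Atoh8). Both overlapped between the diets, with CD library D high, and neither passed (Id1 -1.08, adjusted p = 0.169, and Atoh8 -0.57, adjusted p = 0.224). Smad6 and Smad7, also targets of BMP signalling, changed less. Their log2 changes were -0.23 (edgeR adjusted p = 0.442) and -0.22 (0.623), and both overlapped between the diets.

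The chromatin of this list had 4 of 163 regions past the threshold, 1 higher and 3 lower, against 2.39% of all regions. A region of Atoh8, chr6:72227168-72237278, had 260, 282 and 257 CPM in HFD livers A, B and D, against 343, 361 and 355 CPM in CD livers A, C and D. The groups were apart by more than their spread, with a log2 change of -0.41 (SE 0.07, edgeR adjusted p = 3.01e-05). Bmp6, the main iron-responsive ligand, had higher H3K9ac in a region at -33397 bases from its start (log2 1.51, adjusted p = 0.000348), while its start region was lower (-0.40, adjusted p = 0.0185). The start region of Tmprss6, a protease that restrains hepcidin, was also lower (-0.27, adjusted p = 0.0456). The call at the Bmp6 start was lost without HFD library A or B or CD library A or C (adjusted p up to 0.257) and with DESeq2 (0.0679). That at the Tmprss6 start was lost without each single library but CD D (up to 0.317), with DESeq2 (0.105) and among regions at or above the median level (0.0539).

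A list of inflammatory regulators covered interleukin 6, STAT3 and CREBH, and also held the activin B gene Inhbb. Of these, 0 of 8 genes passed in edgeR's test (median 0.08), against 7.27% of all genes. Of their 69 regions 4 passed, all higher in HFD livers and all at Il6ra or Inhbb, against 0.835% of all regions higher. Il6ra, the interleukin 6 receptor, had 21.2, 35.4, 23.6 and 32.8 CPM in HFD livers A to D, against 11.2, 17.6, 21.1 and 16.6 CPM in CD livers A to D. The groups did not overlap, but A of HFD and C of CD nearly met, and the log2 change of 0.76 had an adjusted p of 0.0574 in edgeR's test. Its H3K9ac was higher in 3 regions (log2 0.37 to 0.74, adjusted p 0.00388 to 0.0242), each of which lost its call without one or more single libraries. Inhbb, a subunit of activin B, had a higher start region (0.50, adjusted p = 0.00154), and RNA values of 0.776 to 1.98 CPM in HFD livers, against 0.212 to 0.719 CPM in CD livers (1.25, adjusted p = 0.09).

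The remaining lists held no RNA called in edgeR, against 7.27% of all genes. They covered haem and haemoglobin clearance (11 genes, median 0.10), the iron regulatory proteins and their control (11 genes, 0.09), haem synthesis (13 genes, 0.02), and mitochondrial iron and iron-sulfur clusters (22 genes, 0.09). The genes with the smallest p in them were Abcg2 (-0.28, adjusted p = 0.144), Egln1 (0.29, adjusted p = 0.113), Alad (0.30, adjusted p = 0.291) and Cisd2 (0.19, adjusted p = 0.258). Alas1, the first enzyme of haem synthesis in liver, varied from 116 to 798 CPM in HFD livers and from 44.6 to 339 CPM in CD livers.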

How the data were processed

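Per the file headers, the authors deposited raw read counts per gene with log2 FPKM values, and raw read counts per H3K9ac region in one common region set, each with a log2 fold change and an FDR (adjusted p-value) for HFD against CD. Per the submitters' processing notes, coordinates are on mm10. No aligner, peak caller, counting tool or test is named there (not given in the sources used here). In the authors' deposited table, 2 of the 9 genes and 3 of the 36 regions had an FDR under 0.05. Of 17 labelled samples, an input and 2 ATAC libraries had no matched column and were not analysed here. Blank lines of the RNA table (4999) and repeats of 71 regions were left out. Listed genes had mean counts from 13.9 upwards, and genes under that are not covered.

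Counts were fitted with edgeR 4.0.16 in R 4.3.3 (TMM, filterByExpr, which removed 0 features, and the quasi-likelihood test), with limma 3.58.1 loaded and DESeq2 1.42.0 as an alternative. P-values were adjusted over all features, the SE is the log2 change divided by the square root of F, and 0.05 was the threshold. Shares were tested with exact permutation tests (scipy 1.17.1), with Wilson intervals at 95%. Pairs of libraries within a group differed beyond sampling noise (lowest chi-square per degree of freedom 32.1 for RNA and 1.5 for H3K9ac). The fits were tested on simulated data. Alternatives were library totals, features at or above the median level, each library left out, the letters as a block and marker terms. The 9 genes and the lists were chosen with earlier results of these data known. The text names all 9 genes, list genes past the threshold (up to 4 per list) or, in a list with none, the one with the smallest p, and the 5 genes most like each hepcidin. Id1, Atoh8, Smad6, Smad7, Inhbb, Alas1, Pck1, the neighbours Usf2 and Lsr and the list regions were named after their values were seen.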

Additional observations from a re-analysis of the deposited data

Results flagged for a closer look

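HFD library A stood apart from the other 3 HFD libraries in 2 of 38 groups of 4 libraries examined for a single value far from the rest. The gap of that library to its nearest neighbour was compared with the group's whole range (Dixon's test), which marks about 1 in 20 such groups by chance. The count of 2 in 38 is close to that rate. Slc40a1 had 110.33 CPM in HFD library A, while HFD libraries B, C and D had 175, 177 and 188 CPM. Without that library the log2 change of Slc40a1 was 0.46, with an edgeR adjusted p of 0.0986. The share of Hamp2 in the hepcidin counts was 29.3621% in HFD library A and 10.4 to 13.7% in the other HFD libraries. Without that library the share differed between the diets by 11.7 percentage points. The exact permutation p was 0.0571, a value fixed by the parted levels of Hamp and Hamp2.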

How the results depend on the processing

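Hamp2 was past the threshold and higher in HFD livers, and Hamp lower, in every alternative run, with 2 exceptions. With both genes' counts summed, the change in place of that of Hamp2 was reversed, -1.10, and with HFD A and B only (chosen after seeing the data) Hamp had -1.06 and 1 of the 9 genes passed. The labels do not say that the letters pair the libraries, and the values did not settle it. Same-letter correlations were 0.295, 0.0613, 0.235 and -0.222 for A to D in RNA, and 0.0898 and 0.081 for A and D in H3K9ac. The same letter gave the best match for HFD library B in RNA and for HFD libraries A and D in H3K9ac. With the letters as a block the SE of Tfrc RNA was 0.0953, against 0.23 without it, and Il6ra RNA passed (log2 0.77, edgeR adjusted p = 0.0288). With the replicate block, 826 genes and 1277 regions passed, and the shares differed by 15.99 points for Hamp2 and -5.02 for Ftl1, with an exact sign-flip permutation p = 0.125, the smallest that 4 pairs allow. In H3K9ac only the letters A and D occur in both diets. The diet change in the block fit thus rested on those letters, and HFD library B and CD library C did not inform it. In edgeR that block fit also ended the calls of the smaller Hfe region (adjusted p = 0.126), the Bmp6 (0.182) and Tmprss6 (0.101) starts, the smallest Il6ra region (0.226), a Scara5 region (0.173) and the Epas1 region (0.297). DESeq2 also ended those of 2 Il6ra regions (0.0573 and 0.0599), both Scara5 regions (0.459 and 0.849), Hp (0.057) and Epas1 (0.139). Leaving out each library gave shares differing by 11.7 to 18.0 points for Hamp2 and -5.52 to -4.28 for Ftl1, with an exact permutation p = 0.0571, the smallest possible. For the Hamp2 share these permutation p-values were fixed in advance, since Hamp and Hamp2 each parted the diets. Of all genes 897 passed, against 1405 with DESeq2, 545 at or above the median level, 1433 and 1565 with Kupffer or endothelium markers as a term, and 478 to 1107 with a library left out. Of all regions 1372 passed, against 798 with DESeq2, 885 at or above the median level and 563 to 1862 with a library left out. Of the 36 regions 4 passed, against 1 with DESeq2, which gave no adjusted p to 12, the Hamp2 region among them, and 2 to 4 with a library left out. Of the 99 list genes 2 passed, against 1 to 9 over all alternatives. Depth limits the Hamp2 region, with 4 to 47 counts a library.

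Changes that never passed and lay near 0 changed sign in some alternatives, and the cause was not tested. With library totals Tfr2 RNA was -0.0296, and at or above the median level -0.0153. With HFD C and D only Tfr2 RNA was -0.14 and Fth1 RNA -0.15, and with HFD A and B only Ftl1 RNA was 0.0262. The strongest Tfrc region was at -0.0400 with the replicate block and at -0.00295 with the gene's regions summed. Leaving out each library gave -0.0556 to 0.29 for Tfrc, -0.0483 to 0.0808 for Tfr2 and -0.0635 to 0.21 for Fth1 RNA. For the strongest regions it gave -0.0142 to 0.0589 (Tfrc), -0.17 to 0.0476 (Tfr2), -0.0190 to 0.19 (Trf), -0.0252 to 0.0763 (Slc40a1), -0.0119 to 0.0785 (Fth1) and -0.12 to 0.0415 (Ftl1).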

Other observations

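Genes were ranked by how closely their log2 CPM followed each hepcidin over the 8 RNA libraries after the diet means were subtracted, among the 6166 or 6167 genes whose level reached the median of all genes. The libraries share their cell makeup and depth, and the values are descriptions. Closest to Hamp were Aph1a (Pearson r 0.946), Serpind1 (0.946), Acad8 (0.941), Cwf19l1 (0.934) and Letmd1 (0.933). None of these 5 passed between the diets. Serpind1, which encodes heparin cofactor II, a plasma inhibitor of thrombin made by hepatocytes, had a log2 change of 0.31 (edgeR adjusted p = 0.0725). Closest to Hamp2 were Ociad2 (0.981), Sdhd (0.981), Tbl3 (0.979), Fbxw9 (0.978) and Maob (0.977). Maob, which encodes the mitochondrial monoamine oxidase B, was higher in HFD livers (log2 0.69, edgeR adjusted p = 0.00459). Hamp and Hamp2 followed each other with r = 0.764 (Spearman rho 0.857) within diets. Livers with more Hamp counts for their diet thus tended to have more Hamp2 counts, while the diets moved the genes in opposite directions. In CD livers Hamp2 held only 0.285 to 0.932% of the counts of both genes. The part of reads assigned to the wrong copy in this r was not tested.

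Erythroid markers, of which 4 of 13 were measured, held 2 called genes of opposite direction in the RNA, against 3.63% of all genes higher and 3.64% lower. Slc4a1, the red cell anion exchanger, was lower in HFD livers (log2 -1.30, edgeR adjusted p = 0.0266), and Klf1, an erythroid transcription factor, was higher (1.03, edgeR adjusted p = 0.0481). Summed erythroid markers ran from 114 to 133 CPM in HFD livers and from 124 to 157 CPM in CD livers. Scara5, which encodes a ferritin receptor, ranged from 1.30 to 6.12 CPM in HFD livers and from 4.31 to 21.2 CPM in CD livers (log2 -1.52, edgeR adjusted p = 0.185), and 2 of its H3K9ac regions were lower in HFD livers (-0.91 and -0.66). Those calls were lost without HFD library A or B or CD library A, and for the second region also without CD library C, and without CD library A the adjusted p was 0.373 and 0.515. Lcn2, which encodes a protein that binds bacterial iron carriers, ranged from 3.99 to 7.79 CPM in HFD livers and from 0.88 to 3.89 CPM in CD livers (log2 1.58, edgeR adjusted p = 0.0609). Regions of Hp, which encodes haptoglobin (0.34, adjusted p = 0.0169), and Epas1, which encodes the hypoxia factor HIF-2 alpha (0.86, adjusted p = 0.0322), had higher H3K9ac in HFD livers, and each call was lost without HFD library A or B or CD library C or D. These genes and regions were chosen after their values were seen.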
